A study of Mus musculus with 6 samples.

Results

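Messenger RNA levels of the insulin receptor, both IGF receptors and the first proteins that act on their signal were followed in HL-1 cells, a dividing line of mouse atrial heart muscle cells. The 10 genes were Insr, Igf1r, Igf2r, Irs1, Irs2, Grb10, Shc1, Gab1, Pik3r1 and Pdpk1, taken by name from the 38087 gene IDs in the count files. All 10 were found, and all 10 were among the 16666 genes that passed the filter on low counts. One group of 3 libraries came from cells given a scrambled control siRNA (labelled control), and the other group of 3 from cells given 100 nM of an siRNA against Circ-INSR, a circular RNA named for the insulin receptor gene. HL-1 is an established line, and no other genotype, agent or time is given in the labels. Whether the libraries are separate cultures is not stated, so each p-value refers to sample-to-sample spread alone, and that spread may be technical. Values are in counts-per-million units (CPM, scaled between libraries unless stated). Differences are log2 fold changes of Circ-INSR siRNA minus control siRNA with their standard error (SE). A gene was called at an adjusted p under 0.05.

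Insulin and the insulin-like growth factors bind receptor tyrosine kinases on the cell surface, which then phosphorylate docking proteins such as the insulin receptor substrates. The docked proteins recruit phosphatidylinositol 3-kinase (PI3K), whose lipid product brings the kinases PDPK1 and AKT together at the membrane, and they also open the RAS to ERK pathway. In heart muscle this signal is known for its control of glucose uptake, protein synthesis and cell size.

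Total counts lay between 60024750 and 77037474 per library, where 3 counts equalled between 0.0389 and 0.04998 CPM. For these values and the markers below, CPM was taken over total counts, without scaling between libraries. Of 11 markers of atrial heart muscle, Myh6, Myl7, Actc1 and Tnnt2 each had a control mean of 901.1 CPM or more. From control to Circ-INSR siRNA, the mean of Myh6 went from 1587 to 2170 CPM and that of Actc1 from 901.1 to 1600. That of Tnnt2 went from 2052 to 1197 CPM and that of Myl7 from 1441 to 1221. Nppa had means of 16.9 and 16.2 CPM. Sln, which encodes an atrial regulator of the calcium pump, was below 1 CPM in every library. All 11 together summed to 7003 to 7280 CPM in control and 7550 to 7642 CPM in Circ-INSR siRNA libraries. The endothelial markers summed to between 4.70 and 5.29 CPM in control and between 11.7 and 12.9 CPM in Circ-INSR siRNA libraries, most of it Tek (means 4.17 and 11.1 CPM) and then Pecam1 (0.743 and 0.968 CPM), with Emcn at 0 and Cdh5 at or below 0.0655 CPM. Leukocyte markers summed to 6.96 to 7.90 CPM in control and 3.79 to 4.25 CPM in Circ-INSR siRNA libraries, most of it Cd68 (means 5.27 and 3.22 CPM) and Csf1r (1.67 and 0.643 CPM), with Ptprc at or below 0.0655 CPM and Adgre1 at 0. Adipocyte markers summed to 0.167 to 0.256 CPM and 0.534 to 0.672 CPM. Fibroblast markers summed to 177 to 191 CPM in control and 130.4 to 147 CPM in Circ-INSR siRNA libraries, most of it Col1a1, with Tcf21 at 0 and 5 of 7 markers under 1 CPM in every library. The smooth muscle list summed to 174 to 188 and 199 to 207 CPM, mainly Cnn1 and Smtn, and the part of these sums in the results was not tested. One library, control replicate 3, was unlike its 2 partners: chi-square divided by the number of genes was 31.3 and 21.8 in its pairs and 6.99 in the remaining control pair. Its 10% longest genes by exonic length were low, with a median of -0.13 on the log2 scale relative to the 6-library mean, where the other 5 libraries had medians between 0 and 0.05.

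Of the 10 genes, 2 rose (Irs1 and Grb10) and 4 fell (Insr, Igf2r, Pdpk1 and Shc1), while Igf1r, Irs2, Gab1 and Pik3r1 did not pass the test. Across all 16666 genes tested, 57.0% were called, 28.5% as higher and 28.5% as lower, so 6 called of 10 is near the background share. For 7 of the 10 every library of one group was above every library of the other, against 63.3% of all genes tested. The median log2 fold change of the 10 was -0.05 and that of all genes -0.0045, with median absolute changes of 0.28 and 0.29. Without control replicate 3, 2 were called higher and 6 lower (30.2% and 29.7% of the 17071 genes then tested). When a trend on length and GC content was removed from each library, 3 were called higher and 3 lower (34.0% and 28.3% of 16364 genes, 62.3% together).

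**Figure D1:**
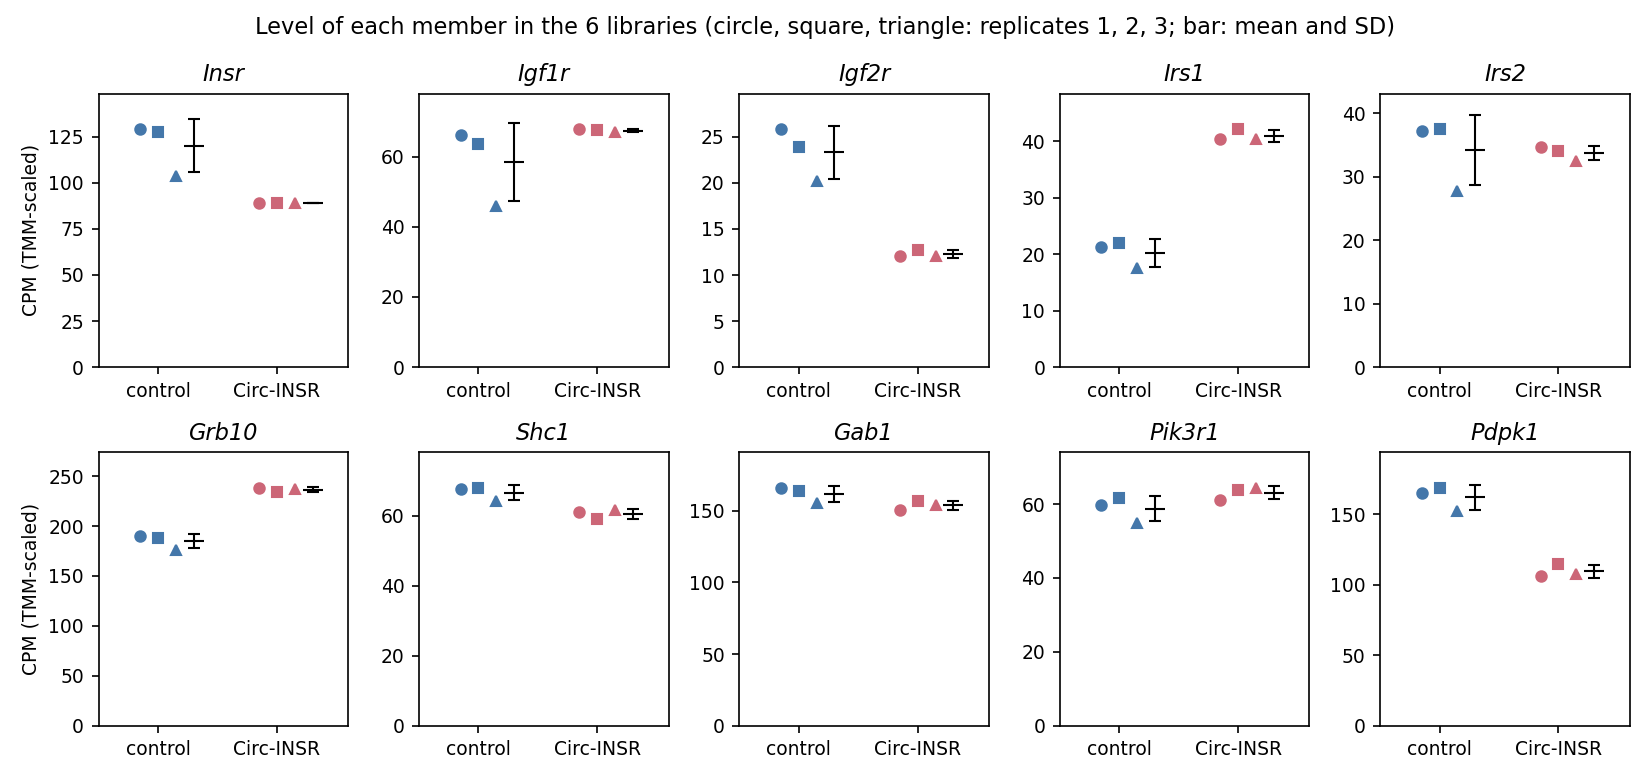
CPM of each gene (y axis, starting at 0, own scale per panel) in the 3 control siRNA libraries (blue) and the 3 Circ-INSR siRNA libraries (red), with the mean and SD of each group as a bar. Irs1 stands near 20 CPM in control and near 41 CPM in Circ-INSR siRNA libraries, and control replicate 3 (blue triangle) is the lowest control library in all 10 panels.

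Insr encodes the insulin receptor (ENSMUSG00000005534, mm10 chr8:3122061-3279617, minus strand). The GENCODE M21 annotation holds 5 transcripts of it, and the counts sum reads over all of them. Known receptor forms A and B differ by 1 short coding exon, at chr8:3181702-3181737, which the gene counts cannot separate. The spliced sequence around it is shown, with the exon of 36 bases in capitals between 20 bases of each neighbouring exon, because every Insr value below adds up both forms.
Insr-203, with the exon: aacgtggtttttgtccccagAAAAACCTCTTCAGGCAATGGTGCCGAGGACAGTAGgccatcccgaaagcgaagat
Insr-201, without the exon: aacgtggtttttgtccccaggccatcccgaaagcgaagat
The counts also carry no reads assigned to a circular junction, and RNA was selected by its poly(A) tail, which circular RNA lacks, so the knockdown itself cannot be read from Insr.

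Insr stood at 129.0, 127.6 and 103.8 CPM in control replicates 1, 2 and 3 and at 89.2 CPM in each of the 3 Circ-INSR siRNA libraries. The groups did not overlap, and control replicate 3 lay between the other controls and the Circ-INSR siRNA libraries. Insr fell by 0.43 on the log2 scale (SE 0.07; adjusted p = 0.000393 by the edgeR quasi-likelihood test with Benjamini-Hochberg adjustment), to 0.743 times the control level. Without control replicate 3 it was -0.52 (SE 0.04), and with the length and GC trend removed -0.47 (SE 0.04).

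Igf1r, the receptor for IGF1 and the closest relative of the insulin receptor among the 10 (chr7:67952827-68233668, plus strand), measured 66.2, 63.4 and 45.8 CPM in control and 67.8, 67.4 and 66.9 CPM in Circ-INSR siRNA libraries. The groups did not overlap, but the highest control library was close to the lowest Circ-INSR siRNA library, and control replicate 3 was far below the rest. The log2 fold change of 0.20 (SE 0.13, 95% interval -0.10 to 0.51) had an edgeR adjusted p of 0.223. It was 0.06 (SE 0.04; adjusted p = 0.225) without control replicate 3, and 0.21 (SE 0.06; adjusted p = 0.00571) with the length and GC trend removed, where it was called higher.

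The ratio of Insr to Igf1r counts within a library needs no scaling between libraries. It was 1.95, 2.01 and 2.27 in control and 1.32, 1.32 and 1.33 in Circ-INSR siRNA libraries. Every Circ-INSR siRNA library lay below every control library, by a mean log2 difference of -0.65 (SD of log2 ratios 0.11 in control and 0.01 after Circ-INSR siRNA, n = 3 each). In an exact two-sided permutation test p was 0.1, the smallest that 3 against 3 libraries can give, and 0.1 after adjustment over the 3 ratios computed. Leaving out single libraries gave log2 differences between -0.69 and -0.58.

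Igf2r encodes the cation-independent mannose 6-phosphate receptor, which carries IGF2 and lysosomal enzymes into the cell and has no kinase (chr17:12682406-12769664, minus strand). It had 25.8, 23.9 and 20.2 CPM in control and 12.1, 12.8 and 12.0 CPM in Circ-INSR siRNA libraries. The groups were well apart, and the log2 fold change of -0.93 (SE 0.08, edgeR adjusted p = 2.42e-06) was the largest downward change among the 10 genes. Its level was 0.527 times that of control.

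Irs1 encodes the insulin receptor substrate that docks PI3K onto the receptor (chr1:82233101-82291416, minus strand), and it moved farthest upward. It had 21.3, 22.1 and 17.5 CPM in control and 40.3, 42.1 and 40.4 CPM in Circ-INSR siRNA libraries, with no overlap. Irs1 rose to 2.02 times the control level, a log2 fold change of 1.01 (SE 0.08) with an edgeR adjusted p of 5e-07. The gene Gm9747 on the opposite strand covers 30.9% of the exonic bases of Irs1, and the strand setting of the counting is not given. Gm9747 itself had 26 counts in all libraries together against 12598 for Irs1.

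The promoters of Irs1 and Igf2r are shown as those of the largest rise and the largest fall, each from 250 bases before to 50 after a transcription start (RefSeq, GRCm38.p6, minus strand, at chr1:82291390-82291689 and chr17:12769657-12769956). Capitals mark the GC box GGGCGG, the CCAAT box, the E-box core CACGTG, the FOXO core TGTTTAC and the TATA box TATAAA, each searched on both strands, with overlapping matches counted.
Irs1: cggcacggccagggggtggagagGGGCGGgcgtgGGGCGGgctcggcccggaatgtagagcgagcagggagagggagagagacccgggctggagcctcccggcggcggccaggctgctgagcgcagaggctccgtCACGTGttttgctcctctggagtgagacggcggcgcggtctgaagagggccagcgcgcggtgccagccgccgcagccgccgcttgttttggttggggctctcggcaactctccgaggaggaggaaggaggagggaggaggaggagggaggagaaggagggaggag
Igf2r: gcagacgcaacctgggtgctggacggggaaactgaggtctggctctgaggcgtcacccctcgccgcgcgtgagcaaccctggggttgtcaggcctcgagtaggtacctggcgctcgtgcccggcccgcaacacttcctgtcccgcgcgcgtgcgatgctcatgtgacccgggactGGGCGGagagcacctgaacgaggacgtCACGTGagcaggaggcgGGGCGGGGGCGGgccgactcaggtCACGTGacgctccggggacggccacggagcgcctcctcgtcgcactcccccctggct
Both windows are GC-rich, at 71.3% for Irs1 and 70.7% for Igf2r against a median of 52.7% over 32851 promoter windows. The GC box GGGCGG occurs 2 times in the Irs1 window and 3 times in that of Igf2r, and 35.7% of all windows hold at least 1. CACGTG, the core of an E-box, occurs 1 time in Irs1, 2 times in Igf2r and 1 time in Irs2, and 7.15% of all windows hold it. Of these genes Irs1 was called higher, Igf2r was called lower and Irs2 was not called. The shares of all windows were not matched for GC content, so they are no like comparison for GC-rich windows. TGTTTAC, a core bound by FOXO factors, is in 0 of the 14 windows found for 9 of the 10 genes, against 3.65% of all windows. No window was found for Insr, so its promoter was not searched. The 2 windows of Gab1 overlap, and 14 windows are too few to set against so small a share. CCAAT is in 37.4% and TATAAA in 13.6% of all windows, and neither is in the windows of Irs1 or Igf2r.

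Irs2, the other main receptor substrate (chr8:10984681-11008458, minus strand), had 37.2, 37.5 and 27.8 CPM in control and 34.7, 34.0 and 32.5 CPM in Circ-INSR siRNA libraries. The Circ-INSR siRNA libraries lay inside the range of the controls. The log2 fold change was -0.02 (SE 0.10, 95% interval -0.25 to 0.22; edgeR adjusted p = 0.9), so no difference was detectable. Without control replicate 3 it was -0.14 (SE 0.05; adjusted p = 0.0200) and would have been called lower, and with the length and GC trend removed it was 0.09 (adjusted p = 0.305), in the opposite direction.

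The ratio of Irs1 to Irs2 counts was 0.571, 0.588 and 0.629 in control and 1.16, 1.24 and 1.24 in Circ-INSR siRNA libraries. All 3 Circ-INSR siRNA libraries were above all 3 controls, with a log2 difference of 1.03 (SD of log2 ratios 0.07 and 0.05, n = 3 each; exact two-sided permutation p = 0.1, the smallest possible, and 0.1 adjusted over 3 ratios). Control replicate 3, low for each substrate alone, had the highest Irs1 to Irs2 ratio of the controls.

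**Figure D2:**
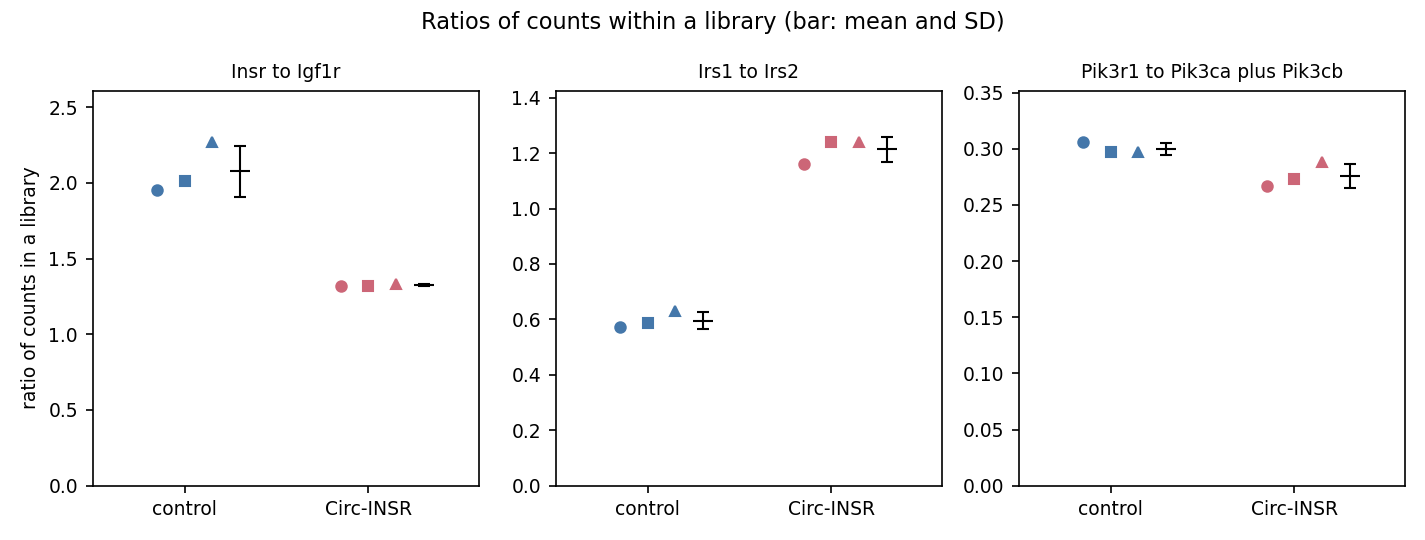
Ratio of the counts of named genes within each library (y axis, starting at 0, own scale per panel), for control siRNA (blue) and Circ-INSR siRNA (red), with replicates 1, 2 and 3 as circle, square and triangle and the mean and SD as a bar. The mean ratio of Insr to Igf1r was 2.08 in control and 1.32 after Circ-INSR siRNA, and that of Irs1 to Irs2 was 0.596 and 1.21, each with no overlap between the groups.

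Grb10 encodes an adaptor that binds activated insulin and IGF1 receptors and dampens their signal (chr11:11930508-12038683, minus strand). It was the other gene that rose, from 189.7, 188.4 and 176.4 CPM in control to 238.4, 234.0 and 236.8 CPM. The lowest Circ-INSR siRNA library was well above the highest control. On the log2 scale the rise was 0.36 (SE 0.04; edgeR adjusted p = 2.66e-05), to 1.28 times the control level.

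Shc1 encodes an adaptor that links the receptors to RAS (chr3:89418443-89430027, plus strand). It had 67.6, 68.0 and 64.1 CPM in control and 61.0, 59.0 and 61.5 CPM in Circ-INSR siRNA libraries, which did not overlap. The fall was small, at -0.14 (SE 0.04; edgeR adjusted p = 0.0199), a level 0.909 times that of control. It was not called without control replicate 2 (adjusted p = 0.0725), without Circ-INSR siRNA replicate 1 (0.0605) or 2 (0.102), or with the length and GC trend removed (-0.05; adjusted p = 0.222).

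Gab1 encodes a docking protein that binds PI3K and the phosphatase SHP2 (chr8:80764438-80880519, minus strand). It measured 166.1, 163.6 and 155.5 CPM in control and 150.4, 157.0 and 153.8 CPM in Circ-INSR siRNA libraries. Control replicate 3 lay within the Circ-INSR siRNA range, so the groups overlapped. The log2 fold change was -0.07 (SE 0.04, 95% interval -0.17 to 0.02; edgeR adjusted p = 0.178). It was called lower without control replicate 3 (-0.10; adjusted p = 0.0328) and with total-count scaling (-0.12; adjusted p = 0.0350). With the length and GC trend removed the change was -0.0004 (SE 0.03; adjusted p = 0.992).

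Pik3r1 encodes the main regulatory subunits of PI3K, which hold the catalytic subunit and bind phosphorylated docking proteins (chr13:101680563-101768217, minus strand). Its levels were 59.8, 61.7 and 54.9 CPM in control and 61.0, 63.8 and 64.4 CPM in Circ-INSR siRNA libraries, with overlap between the groups. The log2 fold change of 0.10 (SE 0.05, 95% interval -0.01 to 0.22) did not pass (edgeR adjusted p = 0.115). It was 0.06 (adjusted p = 0.249) without control replicate 3 and 0.04 (adjusted p = 0.333) with the length and GC trend removed. Both catalytic partners in the ratio below did pass: Pik3ca at 0.31 (SE 0.05; adjusted p = 0.000393) and Pik3cb at 0.18 (SE 0.05; adjusted p = 0.0103). The ratio of Pik3r1 to the summed counts of Pik3ca and Pik3cb was 0.306, 0.297 and 0.297 in control and 0.267, 0.273 and 0.288 in Circ-INSR siRNA libraries. The groups were apart by a narrow margin, with a log2 difference of -0.12 (SD of log2 ratios 0.02 and 0.06, n = 3 each; exact two-sided permutation p = 0.1, the smallest possible, and 0.1 adjusted over 3 ratios).

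Pdpk1 encodes the kinase that phosphorylates AKT in its activation loop (chr17:24073680-24150924, minus strand). It had 164.9, 168.7 and 152.0 CPM in control and 106.0, 114.6 and 107.4 CPM in Circ-INSR siRNA libraries. No library of one group reached the other, and Pdpk1 fell to 0.675 times the control level, a log2 fold change of -0.57 (SE 0.05) with an edgeR adjusted p of 2.62e-06. Without control replicate 3 the change was -0.60, and with the length and GC trend removed -0.62.

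**Figure D3:**
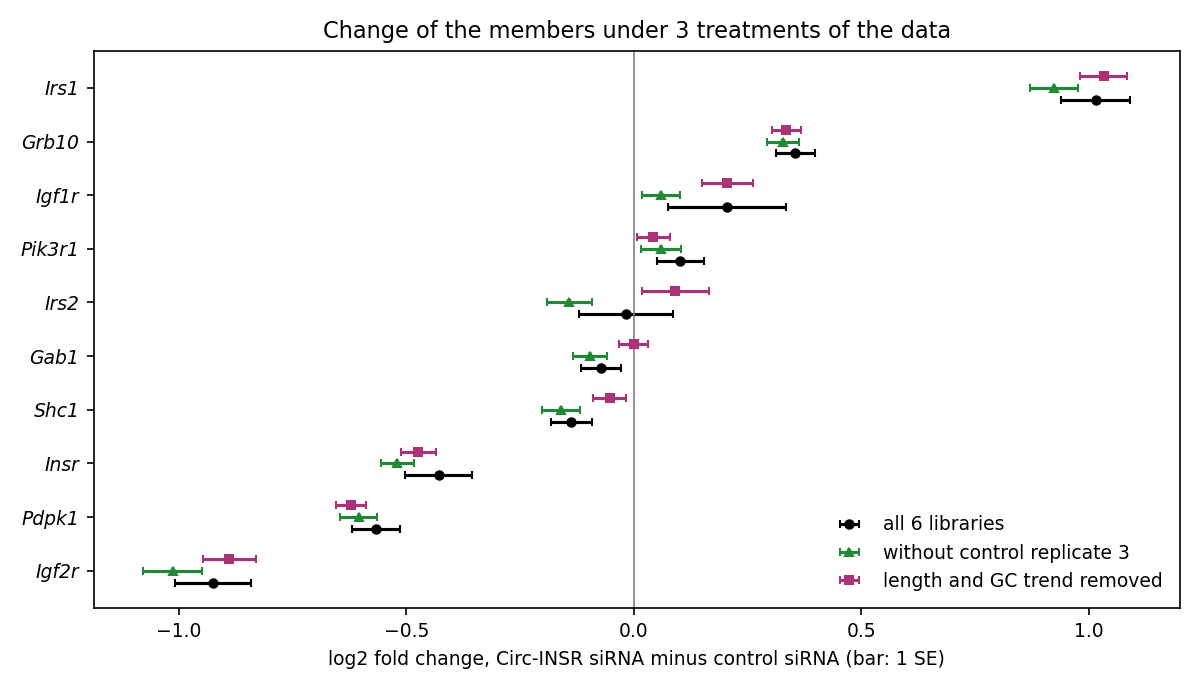
Log2 fold change of each gene (x axis, Circ-INSR siRNA minus control siRNA, bars of 1 SE) with all 6 libraries (black circles), without control replicate 3 (green triangles) and after removal of the length and GC trend of each library (purple squares). With all 6 libraries Irs1 is at 1.01 and Igf2r at -0.93. Irs2 alone is on different sides of 0 among the 3, and Gab1 is at -0.0004 after removal of the trend.

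Control replicate 3 was below the mean of control replicates 1 and 2 for all 10 genes. The log2 difference was -0.50 for Igf1r, -0.43 for Irs2, -0.31 for Insr and Irs1, -0.30 for Igf2r, and between -0.15 and -0.08 for the other 5. Over the 10383 tested genes whose log2 CPM averaged 3 or more, the median of this difference was 0.002, and 90% of genes lay between -0.31 and 0.20, from the 5th to the 95th percentile. For the 1394 of them in the longest 10% by exonic length the median was -0.159. Igf1r, with 16791 exonic bases, and Insr, with 13746, are the longest of the 10, whereas Irs2 has 6323. The cause was not tested.

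Levels were compared between genes only after division by exonic length, as RPKM (CPM per kilobase, over the union of annotated exons, which understates genes with rarely used exons). Gab1 had the highest level in both groups, with 31.8 ± 1.10 RPKM in control and 30.3 ± 0.648 RPKM after Circ-INSR siRNA (SD, n = 3 each). Grb10 followed with 20.3 ± 0.810 and 26.0 ± 0.245 RPKM. In control libraries Pdpk1 (14.8 ± 0.803 RPKM), Shc1 (11.8 ± 0.381) and Insr (8.74 ± 1.03) came next, each with no overlap with its neighbour. Between libraries the ranges of Pik3r1 (5.83 ± 0.347 RPKM) and Irs2 (5.41 ± 0.876) overlapped. So did those of Igf1r (3.48 ± 0.659) with Igf2r (2.51 ± 0.307) and of Igf2r with Irs1 (2.22 ± 0.268), but not those of Igf1r with Irs1. Within each control library the order was the same, with Pik3r1 above Irs2 and Igf1r above Igf2r above Irs1. After Circ-INSR siRNA, Irs1 stood eighth at 4.48 ± 0.111 RPKM, above Igf1r (4.01 ± 0.0256) and Igf2r (1.32 ± 0.0435) with no overlap. Shc1 (10.7 ± 0.234 RPKM) and Pdpk1 (9.996 ± 0.423) then overlapped, and Insr (6.49 ± 0.00133) was just above Pik3r1 (6.26 ± 0.180).

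For each called gene, the other genes with the most similar profile were sought by the root-mean-square difference of centred log2 CPM over the 6 libraries, among 9815 candidates. Closest to Insr were Cntrl (0.0225), Sptbn1 (0.0339) and Ss18l1 (0.0345). Closest to Igf2r were Abhd2 (0.0382), Col4a3 (0.0411) and Lrp8 (0.0438), and to Irs1 Adgrl2 (0.0378), Ano6 (0.0472) and Creb3l2 (0.0483). Grb10 had nearer neighbours, Vps26b (0.00985), Fam222b (0.0138) and Patl1 (0.0162), as had Shc1 with D17Wsu92e (0.0141), Mfap1a (0.0149) and Ccm2 (0.0149). Small distances were not particular to Grb10 and Shc1. For Gab1, Pik3r1, Irs2 and Igf1r, which were not called, the closest gene was at 0.0123, 0.0150, 0.0202 and 0.0337. Pdpk1 was closest to Uhmk1 (0.0273), Foxj2 (0.0295) and Fbxl20 (0.0299).

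The surrounding pathway was described with 6 further lists, chosen with earlier results of these data known. They held 115 genes, of which 106 could be tested. Of these 43 rose and 26 fell, 65.1% called against 57.0% of all genes (28.5% higher and 28.5% lower). The share of all genes here and below includes genes at low counts and is not one of genes of like level. With the filter of 1 CPM in 3 libraries, 4331 genes were higher and 4411 lower of 13412 tested. Under that filter 42 of the listed genes were higher and 27 lower. The median log2 fold change of the 106 genes was 0.08. Ins1 and Ins2, the mouse insulin genes, had 0 counts in every library.

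Among ligands and binding proteins, 4 of 7 tested rose and 2 fell (85.7% called, against 57.0% of all genes). The median log2 fold change was 0.36. Igf2, the growth factor that Igf2r clears, rose from 3.40 ± 0.586 to 6.86 ± 0.368 CPM (SD, n = 3 each; log2 fold change 1.01, SE 0.12). Igfbp4, an IGF binding protein, rose from 89.9 ± 4.80 to 216.5 ± 8.97 CPM (1.27, SE 0.05). Igfbp7, a related secreted protein that binds IGFs weakly, went the other way, from 26.8 ± 1.02 to 9.73 ± 0.300 CPM (-1.46, SE 0.06). The changes of Igfbp4 and Igfbp7 exceeded those of Irs1 and Igf2r in size, with edgeR adjusted p from 5.45e-09 to 1.78e-05 over the 3 named genes.

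Of 22 tested relatives, adaptors and scaffolds, 6 rose and 7 fell (59.1% called, against 57.0% of all genes), with a median of 0.0071. Dok1, a docking protein that restrains RAS, fell from 34.7 ± 1.26 to 23.0 ± 0.554 CPM (SD, n = 3 each). Sh2b1, an adaptor that enhances insulin receptor activity, fell from 131.0 ± 6.53 to 91.7 ± 2.88 CPM. Cblb, a ubiquitin ligase of tyrosine kinase signals, rose from 46.7 ± 3.05 to 61.7 ± 0.109 CPM.

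Of 19 tested phosphatases and inhibitors of the receptor signal, 5 were higher and 7 lower (63.2% called, against 57.0% of all genes). Their median was -0.0010. Socs3, which blocks cytokine and insulin receptors, fell from 16.2 ± 0.122 to 4.85 ± 0.204 CPM (SD, n = 3 each), with a log2 fold change of -1.74 (SE 0.07) and an edgeR adjusted p of 4.95e-09. Inpp4a, a phosphatase of PI3K lipid products, fell from 43.9 ± 2.26 to 21.9 ± 0.725 CPM. Enpp1, a membrane enzyme known to inhibit the insulin receptor, rose from 28.6 ± 2.25 to 44.8 ± 1.88 CPM.

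The list of PI3K subunits and regulators without Pik3r1 had 6 of 11 genes higher and 2 lower, with a median of 0.18. Its share called was 72.7%, against 57.0% of all genes. Pik3c2a, a class II catalytic enzyme, rose from 85.3 ± 3.25 to 131.2 ± 6.09 CPM (SD, n = 3 each). Pik3r2, the beta form of the regulatory subunit, rose from 44.9 ± 1.76 to 61.3 ± 1.81 CPM, where Pik3r1 did not pass. Pik3ip1, an inhibitor of PI3K, fell from 24.2 ± 1.49 to 17.0 ± 0.468 CPM.

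Among AKT, TSC and mTOR genes and their outputs 13 of 30 rose and 3 fell, with a median of 0.12. Slc2a1, the basal glucose transporter, rose from 92.9 ± 2.47 to 151.1 ± 3.47 CPM (SD, n = 3 each) and Slc2a4, the transporter that insulin brings to the surface of muscle cells, from 29.2 ± 0.771 to 42.2 ± 1.41 CPM. Akt1s1, a subunit of the mTOR complex that AKT phosphorylates, rose from 78.6 ± 2.65 to 115.9 ± 3.24 CPM. The edgeR adjusted p of these 3 lay between 1.06e-07 and 2.67e-06. In this list 53.3% were called, against 57.0% of all genes. Without control replicate 3, 13 of the 30 were called higher and 6 lower (30.2% and 29.7% of all genes), and with the length and GC trend removed 17 were higher and 3 lower (34.0% and 28.3% of all genes).

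The RAS to ERK arm, which Shc1 and Gab1 feed, had 9 of 17 genes higher and 5 lower, with a median of 0.15. Its share called was 82.4%, against 57.0% of all genes. The ribosomal S6 kinases below ERK split, with Rps6ka3 higher, from 191.4 ± 9.73 to 351.7 ± 8.71 CPM (SD, n = 3 each), and Rps6ka2 lower, from 50.1 ± 4.93 to 25.1 ± 1.90 CPM. Each gene named from the 6 lists as the top of its list was also called without control replicate 3 and with the length and GC trend removed.

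**Figure D4:**
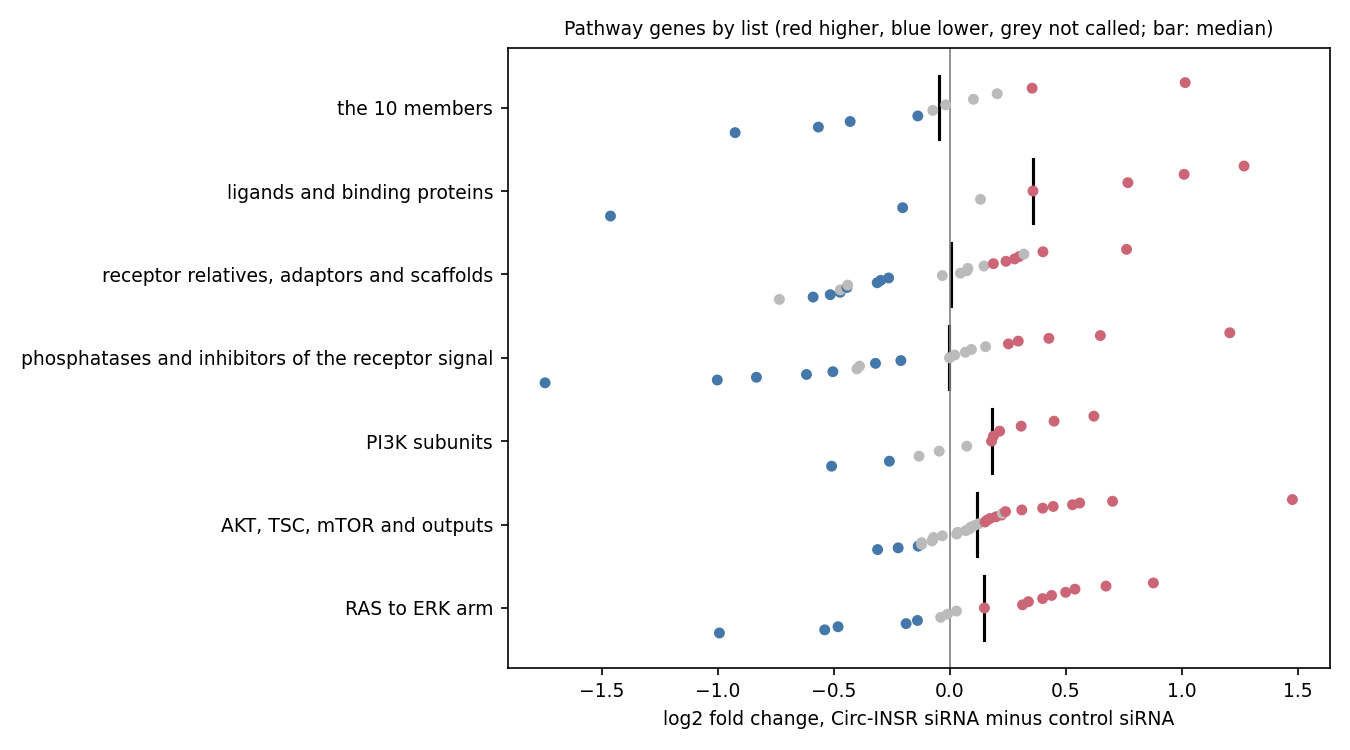
Log2 fold change (x axis, Circ-INSR siRNA minus control siRNA) of the 10 genes and of the tested genes of the 6 wider lists, 1 point per gene, red where called higher, blue where called lower and grey where not called, with the list median as a bar. The medians run from -0.05 for the 10 genes to 0.36 for ligands and binding proteins, and every list has genes called on both sides of 0.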

How the data were processed

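Poly(A)-selected, directional libraries were sequenced from 3 control siRNA and 3 Circ-INSR siRNA samples, per the labels' protocols. Deposited files hold raw, whole-number counts for Ensembl gene IDs. The submitters' processing notes name build mm10, featureCounts 1.6.4, STAR 2.5.0c, StringTie 1.3.5, Trim Galore, bcl2fastq, MultiQC 1.7 and FastQC 0.11.4, without roles. Strand setting and annotation release were not given in the sources used here. In each file more genes had a count of 2 than of 1, as when both mates of a pair are counted, so tests were repeated on halved counts.

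Names, positions and exonic lengths came from GENCODE M21, also on mm10, which named 36308 of 38087 IDs (95.33%). Counts were tested with edgeR 4.0.16 in R 4.3.3: filterByExpr (minimum count 10, minimum total 15), TMM scaling (factors 0.983 to 1.03), a robust quasi-likelihood F-test with group as the only term, and Benjamini-Hochberg adjustment over 16666 genes. The steps were run on simulated counts. These held no unlike library and no length trend, so they do not bear on the effect of control replicate 3. SE is the log2 change over the root of its F statistic. Ratios within a library used 0.5 added counts and exact permutation (scipy 1.17.1). The main test did not pair samples by replicate number. Alternatives were RLE, upper-quartile and total-count scaling, other filters, each library left out, a replicate block, DESeq2 1.42.0, limma-voom 3.58.1, halved counts, thinned libraries and removal of a spline trend on length and GC content.

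Named were all 10 genes, from each wider list the 3 called genes with the smallest adjusted p (1 of them is not reported here), Pik3ca and Pik3cb as parts of a ratio, and the 3 most similar genes of average log2 CPM at least 3 for each called gene. The 10 genes and all lists were chosen with earlier results of these data known.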

Additional observations from a re-analysis of the deposited data

How the results depend on the processing

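Of 296 recomputed values, 284 were labelled as unchanged. For a fold change this meant the same direction and the same side of the threshold. A ratio only had to keep its direction, and a count of called genes only had to stay within a set factor of its main value. Single calls could therefore change under an unchanged count. Without control replicate 3, Irs2 and Gab1 were also called lower, and the count of the 10 genes called lower went from 4 to 6. Irs2, which was not called, changed sign with the length and GC trend removed (0.091). With that trend removed Igf1r was called (0.21) and Shc1 was not (-0.054), and with total-count scaling Gab1 was called (-0.12). With single libraries left out, the log2 fold change ran from -0.52 to -0.37 for Insr, 0.06 to 0.30 for Igf1r, -1.01 to -0.85 for Igf2r, 0.92 to 1.08 for Irs1, -0.14 to 0.055 for Irs2, 0.33 to 0.38 for Grb10, -0.16 to -0.12 for Shc1, -0.096 to -0.053 for Gab1, 0.06 to 0.14 for Pik3r1 and -0.60 to -0.54 for Pdpk1. Irs2 reversed without control replicate 1 (0.050), control replicate 2 (0.055) and Circ-INSR siRNA replicate 3 (0.012). The causes were not tested. Same-numbered samples had correlations of 0.024, 0.074 and 0.036 between their deviations from the group means, each the best for its sample. Deviations within a group cancel out, so these are not 3 separate agreements, and all are small. They are at most a weak hint from the data and not the design. With the replicate block 4968 genes were higher and 4900 lower, and the block changed no call among the 10 genes (Insr -0.42, Igf1r 0.22). No depth limit applied to the 10 genes, each with at least 811 counts in every library.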

Other observations

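The 3 Circ-INSR siRNA libraries were closer together in Insr than counting error alone would give on average. Their SD was 0.0183 CPM, while counting error for 6002, 6780 and 6413 counts comes to 1.12 CPM, a ratio of 0.0164. This takes each count as a separate fragment. If both mates of a pair were counted, counting error would be larger and the ratios of all genes lower. Among 10383 genes whose log2 CPM averaged 3 or more, only 3, Insr included, had a ratio as low, and the median was 1.77. The SD of that group is therefore no measure of the precision of Insr, and the SE of the fit, which pools the spread over genes, was 0.07 on the log2 scale. The other 9 genes had ratios from 0.443 for Igf1r to 3.75 for Pdpk1.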
